A study of Zea mays with 10 samples.

Results

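The maize genes cesa10 (LOC542685), cesa11 (LOC542139) and CesA12 (LOC542514) encode the cellulose synthases of the secondary wall, and their transcripts were followed in the stems of 5 inbred lines. They were found by symbol or synonym, through the gene identifier, in the probe annotation and the reference gene table. Each was measured by 1 probe set, a group of short probes to the same transcript. These 3 genes stand among 1108 that the annotation names on this Affymetrix array. All 3 read above a log2 value of 9 on every array, so the filter against dim probe sets removed none of them. Their adjusted p still depends on which other probe sets are tested. By the array maker's naming, the ending _s_at of the cesa11 probe set marks probes that match more than 1 transcript, and which ones was not examined here.

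The labels name the degradability of maize cell walls as the trait behind the study. Untreated stems of F7025, a Flint-Dent line whose label names a bm3 parent, of F7033 and Cm484, both Flint-Dent, of the Dent line F98902 and of the Flint line F2 were collected. By the labels, F7025 came from IodentXF113bm3, F7033 from (LorenaXF252)XF252, F98902 from Iodent, F2 from lacaune and Cm484 from 200-2-1. Each line had 2 arrays, each hybridised with the RNA of 1 pool of 5 plants. Nothing in the labels says that the pools came from separate plots, so a p-value here weighs a difference against the scatter of pools, part of which may be technical. A brown midrib bm3 mutation alters an enzyme of lignin synthesis, and whether F7025 carries it is not stated. Stem RNA holds many cell types, and a line with fewer lignifying cells cannot be told apart from a line with less RNA of a gene per cell.

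Cellulose chains are spun out at the plasma membrane by rosette-shaped complexes of cellulose synthase proteins. Primary walls, laid down while a cell grows, and secondary walls, laid down in fibres and vessels after growth stops, use different members of the family. In Arabidopsis, each of the distinct secondary wall subunits is needed for the complex to work, and loss of any one gives collapsed xylem vessels. In maize, cesa10, cesa11 and CesA12 are the counterparts of those subunits.

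Across tested probe sets, arrays of the same line correlated at r = 0.965 to 0.993, and arrays of different lines at no more than 0.937. Replicate 2 of F98902, of F2 and of Cm484 came from 20 µg of RNA, and the other 7 from 60 to 100 µg. Of 4 markers of lignifying stem (bm1, 4CL, pal3 and cncr1), all were bright, with list means per array of 11.71 to 12.63. Of 8 kernel genes, 7 stayed under a log2 value of 4 on every array, while all 12 genes of green tissue were read above it, with list means of 10.76 to 11.71. All values below are log2 GCRMA values unless a fold is named.

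The 3 synthases were lowest or level with the lowest in Cm484 and highest in F7025 or F7033. The gene cesa10 read 11.51 and 10.84 on the F7025 arrays, 11.35 and 11.60 on those of F7033, 10.52 and 11.20 on those of F98902, 10.57 and 10.68 on those of F2, and 9.49 and 9.71 on those of Cm484. Both Cm484 arrays lay below all others, and the remaining 4 lines formed a ladder in which neighbours overlapped. For cesa11 the F7025 arrays gave 11.51 and 10.73, F7033 gave 10.98 and 11.19, F98902 gave 10.25 and 10.91, F2 gave 10.45 and 10.47, and Cm484 gave 9.76 and 9.61. The same line was lowest again, and F98902 spanned the narrow range of F2. CesA12 was at 12.04 and 11.80 for F7025, 11.38 and 11.73 for F7033, 10.58 and 10.89 for F98902, 11.01 and 11.47 for F2, and 10.84 and 10.63 for Cm484. Here both F7025 arrays lay above all others, and the arrays of F98902 and Cm484 overlapped at the bottom.

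**Figure D1:**
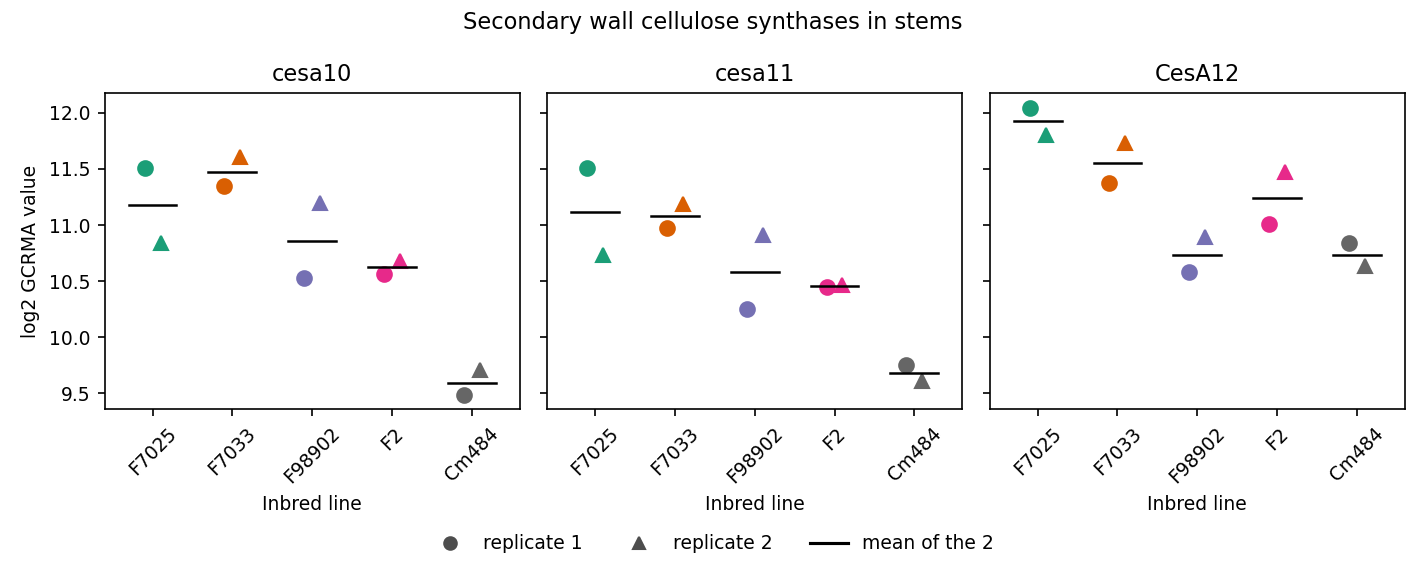
Log2 GCRMA values of cesa10, cesa11 and CesA12 (vertical axis) in 5 inbred lines (horizontal axis); circles are replicate 1, triangles replicate 2 and bars the mean of the 2 arrays. Cm484 lies lowest for cesa10 and cesa11, at 9.49 to 9.76, whereas for CesA12 it shares the bottom with F98902.

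All 3 genes differed among the 5 lines in the limma F-test, with adjusted p = 0.0025 for cesa10, 0.00867 for cesa11 and 0.00316 for CesA12. That test called 73.9% of all tested probe sets, so passing it does not set these genes apart. Without the 3 arrays of 20 µg RNA, cesa11 did not pass, the only F-test call of a member lost in 17 alternatives. That setting leaves F98902, F2 and Cm484 with replicate 1 alone and fewer residual degrees of freedom. A smaller share of all tested probe sets passed the F-test there as well. From the highest to the lowest line mean, cesa10 spanned 1.88 log2 (3.68-fold), cesa11 1.43 (2.70-fold) and CesA12 1.19 (2.28-fold). The median span of all tested probe sets was 1.03 log2, and 76.0% of them had a smaller span than cesa10, 65.9% a smaller one than cesa11 and 57.3% a smaller one than CesA12.

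In Cm484 all 3 synthases fell against the mean of the other 4 lines, where 18.5% of tested probe sets were called lower and 18.4% higher. The level of cesa10 was 9.60 ± 0.16 (SD, n = 2) in Cm484, against 11.03 in the others, 2.71-fold lower (limma log2 difference −1.44, SE 0.21, adjusted p = 0.00131). Its adjusted p stayed between 0.000218 and 0.0331 in all 17 alternatives. For cesa11 it was 9.68 ± 0.10 in Cm484, against 10.81, 2.18-fold lower (−1.13, SE 0.22, adjusted p = 0.00482). CesA12 read 10.74 ± 0.15 in Cm484, against 11.36, 1.54-fold lower (−0.63, SE 0.16, adjusted p = 0.0161). The call of cesa11 was lost without Cm484 replicate 2 (adjusted p = 0.052) and without the 3 arrays of 20 µg RNA (0.102; range over alternatives 0.000802 to 0.102). That of CesA12 was lost without Cm484 replicate 1 (0.0602) or replicate 2 (0.135) and without those 3 arrays (0.188; range 0.0111 to 0.188).

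Beside this decrease in Cm484, other stem genes moved as well. Of the 4 lignifying stem markers, 2 fell in Cm484 and none rose. They were 4CL and cncr1, which are counted again among the lignin genes below. The list means of the 4 were 11.71 to 11.91 in Cm484, against 12.01 to 12.63 in the other lines. Of 10 genes of dividing cells, 6 were tested, and 4 of these rose in Cm484, with list means of 5.37 to 5.42 in Cm484, against 4.85 to 5.34 in the others. Over all tested probe sets, 18.5% were called lower in Cm484 and 18.4% higher. The cyclin genes cycD1, cyc1, cyc2 and cyc3 were under a log2 value of 4 on every array. What part these markers have in the difference of the synthases was not tested.

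In F7025, CesA12 and cesa11 rose and cesa10 did not pass the test. CesA12 was 11.92 ± 0.17 in F7025, against 11.07 in the other lines, 1.81-fold higher (limma log2 difference 0.86, SE 0.16, adjusted p = 0.00373), a call kept in all 17 alternatives (adjusted p = 0.00326 to 0.0471). The level of cesa11 was 11.12 ± 0.55 in F7025, against 10.45, 1.59-fold higher (0.67, SE 0.22, adjusted p = 0.0422). This call held in 6 of 17 alternatives. The settings that lost it included no variance trend, no filter and the replicate block. It was also lost without F7025 replicate 1, without the 3 arrays of 20 µg RNA and without any 1 array of F7033, F2 or Cm484. Without F7025 replicate 1 the difference was 0.28 (adjusted p = 0.413, the highest of a range that begins at 0.0116). The difference of cesa10 was 0.54 (95% interval 0.05 to 1.02, adjusted p = 0.0778), and over the alternatives it ran from 0.20 without F7025 replicate 1 (0.592) to 0.87 without F7025 replicate 2 (0.0282). It also passed at 0.62 without F98902 replicate 2 (0.0261), and not in the other 15 alternatives. Of all tested probe sets, 16.6% were called higher in F7025 and 20.8% lower. Of the 6 tested genes of dividing cells, 4 fell and none rose in F7025, with list means of 4.87 to 5.04 in F7025, against 4.85 to 5.42 in the other lines. Of the 12 green tissue genes, 4 rose and 1 fell, with list means of 11.16 to 11.52 in F7025, against 10.76 to 11.71 in the others. Their part in the levels of the synthases was not tested.

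In F7033, cesa10 and cesa11 rose and CesA12 was not past the threshold. The level of cesa10 was 11.47 ± 0.18 in F7033, against 10.56 in the other lines, 1.88-fold higher (limma log2 difference 0.91, SE 0.21, adjusted p = 0.0086). It was lost in 1 of 17 alternatives, without F7033 replicate 2 (adjusted p = 0.0864, range 0.00139 to 0.0864). For cesa11 the level was 11.08 ± 0.15 in F7033, against 10.46, 1.54-fold higher (0.62, SE 0.22, adjusted p = 0.0452). The cesa11 call held in 7 of 17 alternatives and was lost, among others, without any 1 array of F7033, F2 or Cm484 (highest 0.246, without F7033 replicate 2; lowest over alternatives 0.00927). CesA12 differed by 0.39 (95% interval 0.03 to 0.76, adjusted p = 0.0729), and ran from 0.22 without F7033 replicate 2 (0.463) to 0.57 without F7033 replicate 1 (0.0908). It passed without F2 replicate 2 (0.0424) and under quantile normalization (0.0428), and not in the other 15 alternatives. In F7033, 22.2% of tested probe sets were called higher and 23.2% lower. Green tissue genes were high in F7033 too, 9 of 12 risen and none fallen, with list means of 11.65 to 11.71 in F7033, against 10.76 to 11.52 in the other lines. Of the 6 genes of dividing cells, 3 rose and 1 fell. The part of both lists in the levels of the synthases was not tested.

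In F98902 only CesA12 passed, and in F2 none of the 3 did. CesA12 was 10.74 ± 0.22 in F98902 and 11.36 over the other lines, 1.54-fold lower (limma log2 difference −0.63, SE 0.16, adjusted p = 0.0133). The call was lost without F98902 replicate 1 (adjusted p = 0.106), with array weights (0.0816) and without the 3 arrays of 20 µg RNA (0.051; range 0.00951 to 0.106). For cesa10 and cesa11 the differences in F98902 were 0.14 (95% interval −0.34 to 0.62) and −0.01 (−0.50 to 0.49). In F2 they were −0.15 (−0.64 to 0.33) for cesa10, −0.16 (−0.66 to 0.34) for cesa11 and 0.00 (−0.36 to 0.36) for CesA12, with adjusted p of 0.588, 0.586 and 0.994. For F98902, 23.3% of tested probe sets were called lower and 20.7% higher, and for F2, 17.7% lower and 25.4% higher. In F98902, 5 of the 12 green tissue genes fell and 1 rose, with list means of 10.98 to 11.15, against 10.76 to 11.71 in the other lines. In F2, 7 of them fell and 1 rose, with list means of 10.76 to 10.91, the lowest of the 5 lines. Their part in the levels of the synthases was not tested.

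**Figure D2:**
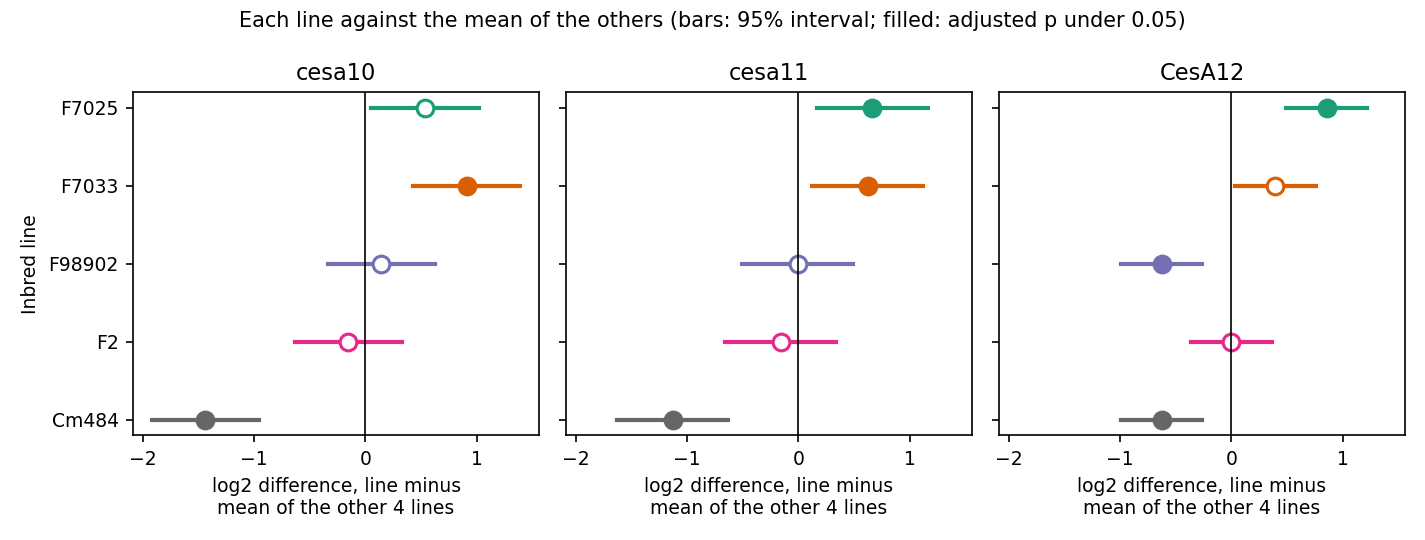
Log2 difference of each line (rows) from the mean of the other 4 lines for cesa10, cesa11 and CesA12; bars are 95% intervals of the limma fit and filled circles have an adjusted p under 0.05. The Cm484 row lies left of 0 for all 3 genes, at −1.44, −1.13 and −0.63, while the F98902 row does so beyond its interval for CesA12 alone.

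Pairs of lines give the order more finely, and of 30 member and pair combinations 13 passed. F7025 exceeded Cm484 for all 3 genes, by 1.58 log2 for cesa10, 1.43 for cesa11 and 1.19 for CesA12 (limma adjusted p = 0.00551, 0.0101 and 0.00554), where 7.86% of tested probe sets were called higher. F7033 also exceeded Cm484 for all 3, by 1.88, 1.40 and 0.82 log2 (0.000868, 0.00435 and 0.012), with 20.9% of probe sets called higher. F98902 exceeded Cm484 by 1.26 log2 for cesa10 (0.00672) and 0.90 for cesa11 (0.0333), with 18.1% called higher, and F2 exceeded Cm484 by 1.03 for cesa10 (0.0167), with 21.6% called higher.

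The remaining pair calls were higher values in F7025 or F7033. CesA12 was higher in F7025 than in F98902 by 1.19 log2 (limma adjusted p = 0.00211; 19.6% of tested probe sets called higher) and than in F2 by 0.68 (0.0262; 16.3%). In F7033 it was higher than in F98902 by 0.82 (0.0117; 22.2%), and cesa10 was higher in F7033 than in F2 by 0.85 (0.036; 16.3%). Between F7025 and F7033, 0 of the 3 genes passed (limma adjusted p = 0.411 for cesa10, 0.946 for cesa11 and 0.179 for CesA12, and 0 at an unadjusted p under 0.05), where 39.7% of tested probe sets were called in either direction. Between F98902 and F2 limma again called 0 of 3, with CesA12 alone at an unadjusted p of 0.0355 and 39.8% of probe sets called.

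Several pair calls were lost when single arrays were left out. Such fits have fewer residual degrees of freedom, and a lost call need not mean a smaller difference. In F98902 against Cm484, cesa11 stayed at 0.90 log2 without F7033 replicate 1 or F2 replicate 1, where its call was lost. In F7033 against F2, cesa10 was at 0.98 log2 without F7033 replicate 1, against 0.85 with all arrays. Of the 13, the calls of cesa10 and cesa11 in F7033 against Cm484 and of CesA12 in F7025 against F98902 held in all 17 alternatives. Beside the losses below, leaving out the 3 arrays of 20 µg RNA lost the cesa10 calls of F2 against Cm484 and F7033 against F2. It also lost the cesa11 calls of F7025 and F98902 against Cm484 and the CesA12 call of F7033 against Cm484. Without the filter, cesa10 was lost in F7033 against F2 (limma adjusted p = 0.0667) and cesa11 in F98902 against Cm484 (0.0609). So was CesA12 in F7025 against F2 (0.0505). The cesa10 calls of F7025 against Cm484 (adjusted p = 0.0508) and F98902 against Cm484 (0.125), and the CesA12 call of F7025 against Cm484 (0.0575), were lost only without the 3 arrays of 20 µg RNA. The cesa10 call of F2 against Cm484 was lost without either array of F2 (0.0637 and 0.0884) or Cm484 replicate 1 (0.0924), and that of F7033 against F2 without any 1 array of F7033, F2 or Cm484 (up to 0.169). For cesa11, F7025 against Cm484 was lost without Cm484 replicate 2 (0.0697), and F98902 against Cm484 without F98902 replicate 2 (0.57 log2, 0.181) and without any 1 array of F7033, F2 or Cm484. For CesA12, F7025 against F2 was lost without F7025 replicate 1 (0.56 log2, 0.129) or F2 replicate 1 (0.45 log2, 0.175). Its calls in F7033 were lost without F7033 replicate 2 (0.0825 against Cm484 and 0.0817 against F98902), without Cm484 replicate 2 (0.072 against Cm484) and without F98902 replicate 1 (0.0587 against F98902).

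Ordered by level, cesa10 ran F7033, F7025, F98902, F2 and Cm484. Of its 4 steps between neighbours, the one from F2 to Cm484 passed, and the 3 others were 0.24 to 0.32 log2 with 95% intervals that included 0. The order for cesa11 was F7025, F7033, F98902, F2 and Cm484, and no step passed, although the arrays of F2 and Cm484 did not overlap (0.77 log2, 95% interval 0.14 to 1.40, limma adjusted p = 0.0554). CesA12 ran F7025, F7033, F2, F98902 and Cm484, again with no step past the threshold. F98902 and Cm484 read alike for CesA12, with a difference of 0.00 and a 95% interval of −0.46 to 0.46, while cesa10 differed between the same 2 lines by 1.26 (0.65 to 1.87).

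The ratios of the members to each other were followed within each array. Levels of different probe sets cannot be compared, so only the change of such a ratio between lines is read. The log2 ratio of cesa10 to cesa11 was 0.00 and 0.11 on the F7025 arrays, 0.37 and 0.41 on those of F7033, 0.27 and 0.29 on those of F98902, 0.12 and 0.21 on those of F2, and −0.27 and 0.10 on those of Cm484. It moved little, with line means over a range of 0.48 log2 (1.39-fold) and a pooled SD within lines of 0.12. For CesA12 to cesa10 the F7025 arrays gave 0.53 and 0.96, F7033 gave 0.03 and 0.13, F98902 gave 0.05 and −0.30, F2 gave 0.44 and 0.79, and Cm484 gave 1.35 and 0.93. Its line means covered 1.26 log2 (2.40-fold) beside a pooled SD of 0.25, and the arrays of F7033 and F98902 lay below all those of the other lines.

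For CesA12 to cesa11 the log2 ratios were 0.54 and 1.07 for F7025, 0.40 and 0.54 for F7033, 0.33 and −0.02 for F98902, 0.56 and 1.00 for F2, and 1.08 and 1.02 for Cm484. Cm484 was high and F98902 low, with a span of 0.90 log2 between line means (1.86-fold). An exact permutation test of the 5 lines over the 10 arrays gave p = 0.0349 for cesa10 to cesa11, 0.019 for CesA12 to cesa10 and 0.0571 for CesA12 to cesa11, where the smallest possible p is 0.00106. Adjusted over the 3 ratios, these were 0.0524, 0.0524 and 0.0571, so none passed the threshold, and 2 did at an unadjusted p under 0.05. Without Cm484 replicate 2, the adjusted values were 0.00317 for cesa10 to cesa11 and 0.0302 for CesA12 to cesa10, and over the alternatives those of the 3 ratios ranged from 0.00317 to 0.4.

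**Figure D3:**
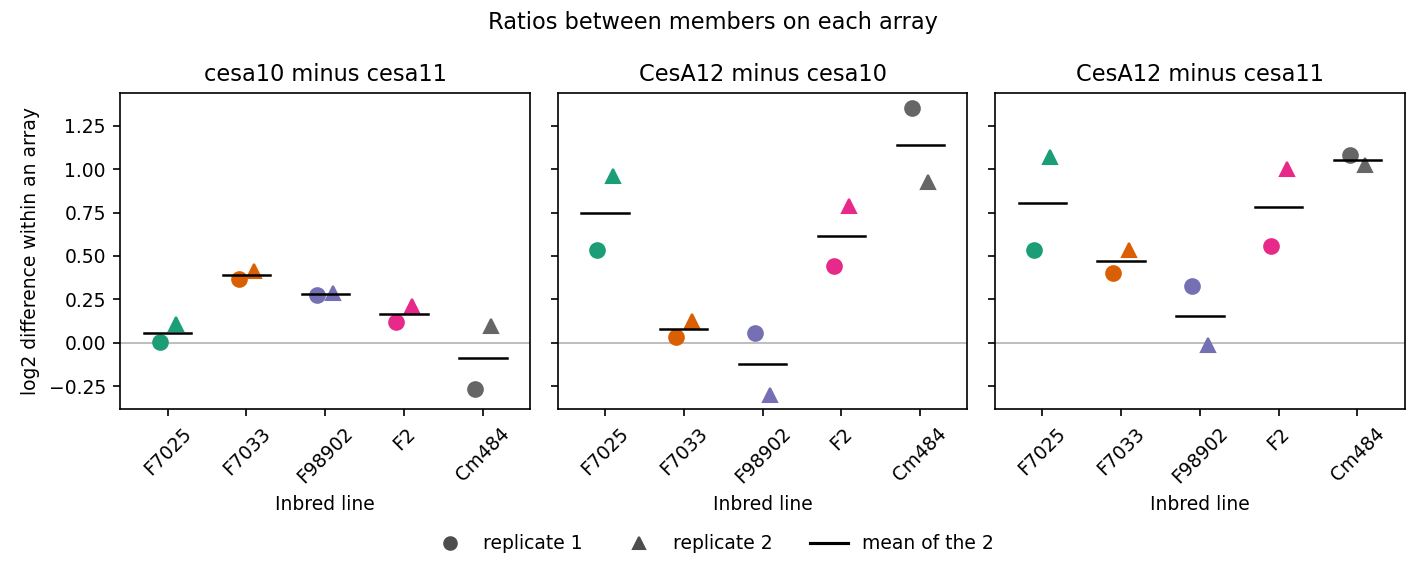
Log2 ratio of 2 members on each array (vertical axis, difference of log2 values) in 5 inbred lines; circles are replicate 1, triangles replicate 2 and bars the mean of the 2. The line means of cesa10 minus cesa11 lie within 0.48 log2 of each other, while those of CesA12 minus cesa10 cover 1.26, from Cm484 at the top to F98902 at the bottom.

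Between the 2 arrays of a line, cesa10 and cesa11 differed in the same direction in 4 of 5 lines. The second array of F7025 was lower than the first by 0.67 for cesa10 and 0.78 for cesa11, and that of F98902 higher by 0.67 and 0.66, where CesA12 changed by −0.24 and 0.32. In F7025, 90.1% and 93.1% of tested probe sets had a smaller difference between the arrays than cesa10 and cesa11. F98902 replicate 2 came from 20 µg of RNA and replicate 1 from 70 µg, while both F7025 arrays had 60 µg. In F2, with 20 µg behind replicate 2 and 80 µg behind replicate 1, the second array read 0.12 higher for cesa10, 0.02 for cesa11 and 0.47 for CesA12. Cm484 was the exception, with cesa10 higher by 0.22 on replicate 2 and cesa11 at −0.14, beside −0.21 for CesA12.

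Over the 10 arrays, which share lines in pairs, cesa10 and cesa11 correlated at Pearson r = 0.97 and Spearman rho = 0.98. CesA12 correlated with cesa10 at r = 0.69 (rho = 0.76) and with cesa11 at r = 0.79 (rho = 0.79). Leaving out the 2 arrays farthest from the median, r was 0.95 for cesa10 with cesa11, 0.59 for cesa10 with CesA12 and 0.61 for cesa11 with CesA12. Among 11066 other tested probe sets, cesa11 had the highest correlation with cesa10, and cesa10 the third highest with cesa11. CesA12 stood at place 397 for cesa10 and at place 162 for cesa11. These correlations describe 10 arrays of 5 lines and carry no test.

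**Figure D4:**
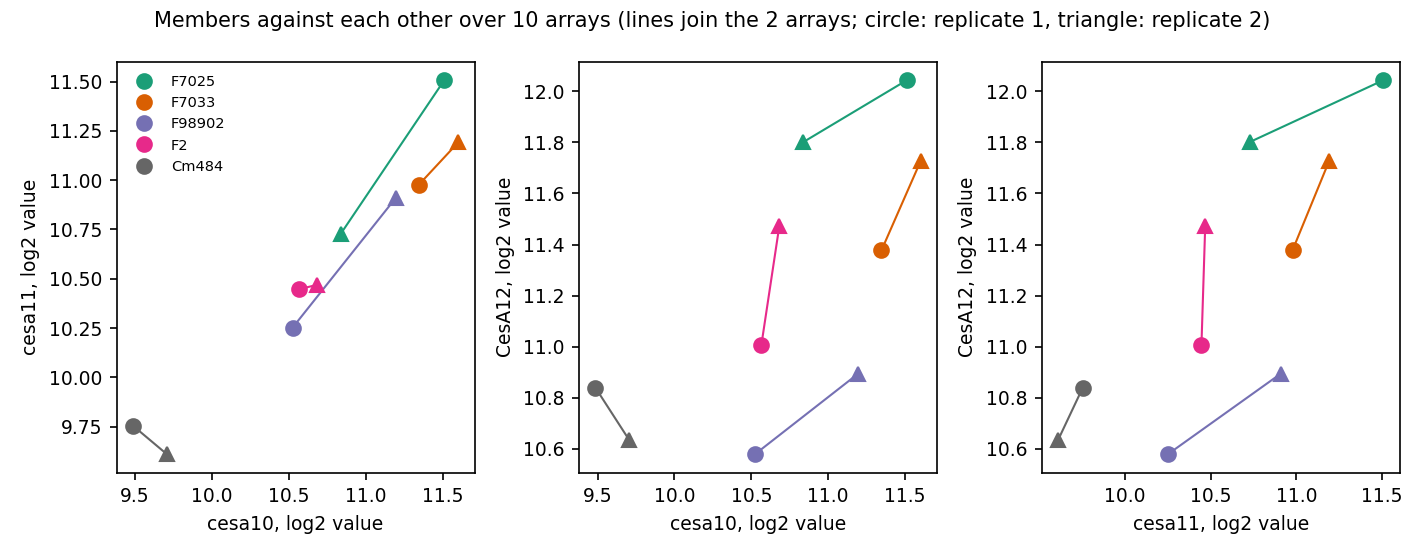
Log2 values of the members against each other on 10 arrays (colours are lines, a line segment joins the 2 arrays of an inbred line, circles are replicate 1 and triangles replicate 2). The points of cesa10 and cesa11 fall along 1 diagonal (r = 0.97), while CesA12 spreads more widely against both (r = 0.69 and 0.79).

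Among 811 other named genes, those with the pattern most like cesa10 over the 10 arrays were mir3, a cysteine proteinase gene (r = 0.92), the kinesin gene KIN6 (0.91), the glucuronyltransferase gene pglcat8 (0.91), CesA-7 (0.88) and the glutamate dehydrogenase gene gdh1 (0.87). For cesa11 they were bk2 (r = 0.92), KIN6 (0.89), CesA-7 (0.86), LOC541946 (0.86) and the proton-pumping pyrophosphatase gene H+-PPase (0.83). The closest to CesA12 were b-70, a chaperone gene of the endoplasmic reticulum (0.91), IRL (0.91), LOC541946 (0.89), H+-PPase (0.86) and the malate dehydrogenase gene CYTMDH (0.83). KIN6 and CesA-7 were near both cesa10 and cesa11, and LOC541946 and H+-PPase near both cesa11 and CesA12. No named gene was among the 5 nearest of all 3 members.

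The gene bk2, brittle stalk2, encodes a COBRA-like protein that maize needs for stiff stalks and normal cellulose in secondary walls. Its means were 10.40 ± 0.52 for F7025, 9.89 ± 0.28 for F7033, 9.68 ± 0.76 for F98902, 9.73 ± 0.17 for F2 and 9.02 ± 0.03 for Cm484 (SD, n = 2 each). Unlike the 3 synthases, bk2 did not pass the limma F-test among the 5 lines (adjusted p = 0.0645). Like the synthases it fell in Cm484, by 0.90 log2 against the other lines (limma adjusted p = 0.0372), a call kept in 8 of 17 alternatives (0.00582 to 0.194). It was lost without any 1 array of F7033, F2 or Cm484, without F7025 replicate 1, without the filter and without the 3 arrays of 20 µg RNA. In F7025 the difference was 0.81 (adjusted p = 0.0521). Its correlation was 0.84 with cesa10 and 0.81 with CesA12, and at place 12 of all tested probe sets for cesa11.

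The other 9 cellulose synthases of the annotation, CesA-1 to CesA-9, include those of primary walls and showed no single pattern across the lines. In Cm484, where all 3 secondary wall genes fell, 2 of the 9 rose (CesA-3 by 0.51 and CesA-6 by 0.94 log2) and 1 fell, with a median log2 difference of 0.08, against −1.13 over the 3 and 0.00 over all tested probe sets. The 1 that fell was CesA-4 (−1.25, limma adjusted p = 0.00387), lost without Cm484 replicate 2 and without the 3 arrays of 20 µg RNA, and its other probe set gave −0.93. The call of CesA-6 was lost in the same 2 settings (up to 0.0524) and that of CesA-3 without the 3 arrays of 20 µg RNA (0.0538). Over all tested probe sets, 18.4% rose and 18.5% fell in Cm484. In F7033, 3 of the 9 fell and none rose, with a median of −0.37, against 0.62 over the 3 secondary wall genes and −0.02 over all tested probe sets, of which 22.2% rose and 23.2% fell. In F7025, 4 of the 9 rose and 1 fell, with a median of 0.38, against 0.67 over the 3 and −0.05 over all, of which 16.6% rose and 20.8% fell. Counts in F98902 were 1 risen and 1 fallen, and in F2 they were 1 risen and 2 fallen, where 20.7% of all tested probe sets rose and 23.3% fell in F98902, and 25.4% rose and 17.7% fell in F2.

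Set within each array against the mean of those 9, the mean of the 3 secondary wall genes stood 1.31 and 1.27 log2 above it in F7025 and 1.83 and 1.92 in F7033. It stood 0.76 and 0.89 above it in F98902, 1.04 and 1.08 in F2, and 0.26 and 0.04 in Cm484. Levels of different probe sets cannot be compared, so here too only the change between lines is read. The arrays of each line kept apart from those of every other line on this measure. It is a description of chosen genes and was given no test. With cesa10, CesA-7 and CesA-4 correlated at 0.88 and 0.76 over the 10 arrays, while the other 7 lay between −0.43 and 0.17. CesA-7 itself did not pass among lines (F-test adjusted p = 0.197), and differed by −0.37 log2 in Cm484 (adjusted p = 0.0622).

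**Figure D5:**
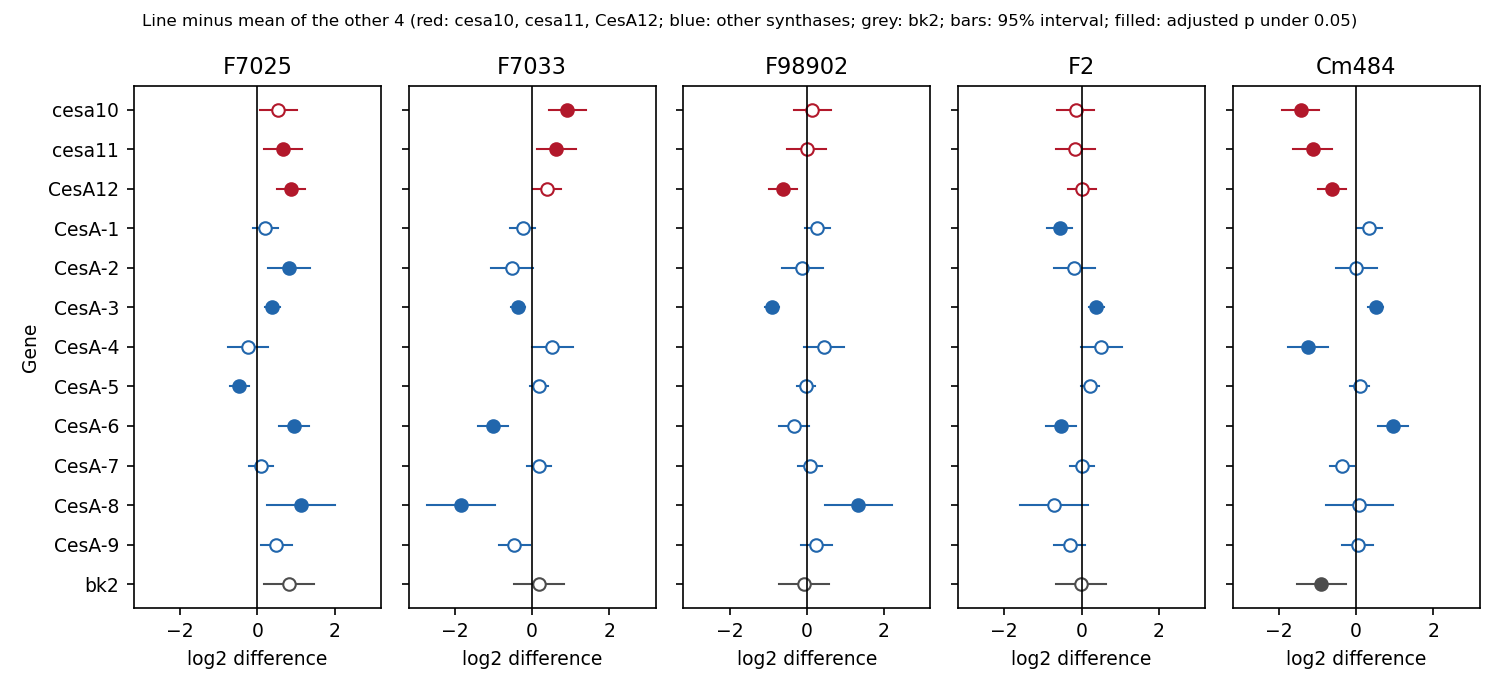
Log2 difference of each line (panels) from the mean of the other 4 for cesa10, cesa11 and CesA12 (red), the other 9 cellulose synthases (blue) and bk2 (grey); bars are 95% intervals and filled circles have a limma adjusted p under 0.05. In Cm484 the 3 red points lie left of 0, at −1.44 to −0.63, while the blue points run from −1.25 to 0.94.

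Sucrose synthases release the sugar nucleotide that cellulose synthases use, and COBRA-like proteins are needed for orderly fibrils. Of the 5 tested genes among 6 such partners (bk2, Bk2L3, Bk2L6, sh1, sus1 and sus2), 3 fell in Cm484 and none rose, beside 18.5% and 18.4% of all tested probe sets. They were bk2, sus2 (−1.25, limma adjusted p = 0.00424, lost without Cm484 replicate 1) and sh1 (−0.51, adjusted p = 0.00588, lost without Cm484 replicate 1 and without the 3 arrays of 20 µg RNA). In F7025, 1 rose (Bk2L3) and 2 fell (sh1 and sus1), beside 16.6% and 20.8% of all. These calls held in 10, 17 and 3 of 17 alternatives. None fell in the other lines, where 1 rose in F7033 (22.2% of all), 2 in F98902 (20.7%) and 3 in F2 (25.4%). In F98902 they were sh1 and sus2, whose calls held in 6 and 9 of 17 alternatives. The call of sh1 in F7033 held in all 17, and those of sh1, sus1 and sus2 in F2 in 14, 14 and 15. Bk2L6 was under a log2 value of 4 on all arrays.

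Lignin is deposited in the same secondary walls. Of 5 tested lignin genes among pal3, 4CL, cncr1, cncr2, bm1 and LAC1, 2 fell in Cm484 (4CL and cncr1; 18.5% of all tested probe sets fell) and 3 rose in F98902 (pal3, 4CL and cncr1; 20.7% rose). The F98902 call of 4CL held in 5 of 17 alternatives (adjusted p = 0.0155 to 0.402). In each of 3 other lines 1 gene was called, cncr1 higher in F7033 (22.2% of all) and lower in F2 (17.7%), and LAC1 lower in F7025 (20.8%), shares close to those of all probe sets. Over the 10 arrays the cinnamoyl-CoA reductase gene cncr1 correlated with cesa10 at 0.86 and with CesA12 at 0.37. The 4-coumarate ligase gene 4CL gave 0.77 and 0.42, pal3 0.20 and −0.47, bm1 0.29 and 0.48, and LAC1 −0.38 and −0.78. The line means of cncr1 and 4CL were highest in F98902, at 12.28 ± 0.19 and 12.17 ± 0.36. The next were close, with 12.25 ± 0.30 for cncr1 in F7033 and 12.14 ± 0.26 for 4CL in F7025. CesA12 was 10.74 ± 0.22 in F98902, level with its lowest line mean, 10.74 ± 0.15 in Cm484.

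The MYB factors myb31 and myb42, known in maize as repressors of lignin genes, both rose in F2 and fell in F7025, where 25.4% and 20.8% of all tested probe sets did so. The level of myb31 was 6.57 ± 0.22 in F2 and 5.01 ± 0.36 in F7025 (limma log2 differences from the other lines 1.18 and −0.78, adjusted p = 0.00104 and 0.00962, the second lost without F7025 replicate 2). For myb42 it was 6.72 ± 0.38 in F2 and 5.66 ± 0.19 in F7025 (0.72 and −0.61, adjusted p = 0.0227 and 0.048). The F2 call of myb42 was lost without F2 replicate 2 and without the 3 arrays of 20 µg RNA, and its F7025 call held in 6 of 17 alternatives (0.0378 to 0.276). Beside these calls, myb31 was higher in F98902 (0.59, limma adjusted p = 0.026) and lower in Cm484 (−0.57, adjusted p = 0.0355). These 2 calls held in 12 and 10 of 17 alternatives, where 20.7% of all tested probe sets rose in F98902 and 18.5% fell in Cm484. The differences of myb42 in the same lines, −0.22 and 0.26, did not pass. Over the 10 arrays myb42 correlated with cesa10 at −0.51, with cesa11 at −0.61 and with CesA12 at −0.42. For myb31 the same correlations were 0.03, −0.06 and −0.36.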

How the data were processed

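The deposited table held 1 log2 value per probe set and array, made with GCRMA per the submitters' processing notes, with no version stated. Values of 1.35 to 14.5 bear out the log2 scale. GCRMA makes arrays alike in distribution, so a shift common to all genes would have been removed. No further normalization was applied. Leaving aside 113 control probe sets of the array maker, those at a log2 value of 4 or above on at least 2 arrays were tested (11067).

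The package limma 3.58.1 for R 4.3.3 (functions lmFit and eBayes, the second with a trend of variance on level) was fitted to all 10 arrays, with line as the only term, 5 residual degrees of freedom and 5% as the threshold for the Benjamini-Hochberg adjusted p over all tested probe sets within each comparison. Contrasts of a line set it against the unweighted mean of the other 4. Every adjusted p comes from such a limma fit, except those of the ratios. Those come from an exact permutation test over 945 groupings, which counts F statistics at least as large as the observed one. The fit was tested on simulated data. The number of arrays limits the precision. Alternatives were quantile normalization, no filter, a filter at 6, no variance trend, array weights, a replicate block, leaving out each array, and leaving out the 3 arrays of 20 µg RNA.

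The members and lists were chosen with earlier results of these data known. Named genes were the members, the listed wall genes and, for each member, the 5 named genes with the highest Pearson correlation over the 10 arrays. A gene with several probe sets was represented by the brightest. Names come from the probe annotation and the reference gene table of the B73 assembly. Genome positions and sequences were not used here. Tables were handled with Python 3.11.15, pandas 2.3.3 and scipy 1.17.1, and plots with matplotlib 3.10.9.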

Additional observations from a re-analysis of the deposited data

How the results depend on the processing

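Of 24 calls of the members (3 F-tests, 8 line contrasts and 13 pairs), 7 held in all 17 alternatives, and none of the 21 signed calls turned its direction. Calls in a line against the other 4 numbered 4 to 9 when 1 array was left out, against 8, and 3 without the 3 arrays of 20 µg RNA. Pair calls numbered 9 to 18, against 13, and 5 without those 3 arrays. With fewer arrays, fewer degrees of freedom remained. All 3 F-tests passed whichever array was left out. Ratios past the threshold numbered 0 to 2 when 1 array was left out, against 0.

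The replicate block (replicate number beside line) gave 6 line calls, without those of cesa11 in F7025 (adjusted p = 0.0577) and F7033 (0.0611), 13 pair calls of the members, and 1 ratio call by exact permutation, cesa10 to cesa11 (0.025). The labels do not say that the number marks a shared batch. Between lines, the difference of replicate 2 from replicate 1 correlated across probe sets at −0.38 to 0.37, above 0.1 in 5 of 10 pairs of lines, so not every pair of lines shared it. Among F98902, F2 and Cm484, whose replicate 2 came from 20 µg of RNA, these correlations were 0.37, 0.37 and 0.27. For F7025 with the other lines they were −0.38 to 0.00029. The alternative of another probe set per member did not apply, since each has 1.

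Small differences that were never called turned their sign; the cause was not tested. Against the other lines, leaving out 1 array gave −0.23 to 0.23 for CesA12 in F2 (0.00), −0.33 to 0.32 for cesa11 in F98902 (−0.01) and −0.19 to 0.48 for cesa10 in F98902 (0.14). Between F98902 and Cm484, CesA12 (0.00) ran from −0.16 to 0.16. Between F98902 and F2, cesa10 (0.24) ran from −0.10 to 0.57 and cesa11 (0.12) from −0.21 to 0.45. Between F7025 and F7033, cesa10 (−0.30) ran from −0.64 to 0.037 and cesa11 (0.03) from −0.36 to 0.42. Between F7025 and F98902, cesa10 (0.32) ran from −0.021 to 0.65. Without the 20 µg arrays, CesA12 was −0.22 in F2 against the other lines and −0.26 between F98902 and Cm484, cesa10 was −0.15 in F98902 against the other lines and −0.041 between F98902 and F2, and cesa11 was −0.19 between F98902 and F2. Quantile normalization gave −0.000423 for CesA12 in F2 against the other lines and −0.0088 for cesa11 between F7025 and F7033.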
